A study of Mus musculus with 2 samples.

Results

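γδ T cells were recovered from single-cell RNA sequencing of the suprarenal abdominal aorta of mice, 99 cells of the 35848 that passed the cell filter. They were chosen by their own measured transcripts: at least 2 UMIs (unique molecular identifiers, one per captured transcript) of Cd3d, Cd3e and Cd3g together, at least 1 UMI of Trdc, no UMI of Cd4, Cd8b1, Ncr1 or Cd79a, at most 1 UMI of C1qa, C1qb and C1qc together and fewer than 10 of S100a8 and S100a9 together. The cell filter asked for 500 or more UMIs from 200 or more genes and for a mitochondrial share below 20%. The Control library held 12 γδ T cells among 11288 kept cells, and the AngII+HS library held 87 among 24560. Both groups were 5-month-old male C57BL/6J mice. AngII+HS mice received angiotensin II by osmotic minipump together with drinking water containing NaCl and KCl for 28 days, and Control mice received saline. The design text states that aortas of 5 mice were pooled for each library, whereas the label of the extraction step names 1 Control and 2 AngII+HS mice. There was 1 library per condition, so no replicate error exists, no test between conditions or between cell groups was made, and every interval given here is a 95% interval of counting error only. The deposited barcode lists carried a further limit. The list recorded with the Control library has 24804 barcodes, as many as the AngII+HS matrix, and the list recorded with AngII+HS has 11448, as many as the Control matrix. Each list is itself named for the other condition, and the lists share 67 barcodes. The condition of each matrix was taken from its label, and an exchange of the matrices would turn every direction between conditions around.

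γδ T cells carry a receptor of one γ and one δ chain in place of the αβ receptor, and most of them recognise targets without classical MHC presentation. In the mouse they leave the thymus already committed, either to interleukin 17 (IL-17), under transcription factors such as SOX13, MAF and PLZF, or to interferon γ, under T-bet and EOMES. The IL-17-committed cells formed in fetal life use the variable segments Trgv6 and Trdv4, settle in skin, gut, adipose and other barrier or connective tissues, and answer to IL-23 and IL-1β without prior priming. IL-17A acts on stromal cells and draws in neutrophils.

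The variable segments Trgv6 and Trdv4 are shown because they mark the fetal IL-17-committed cells and played no part in choosing the members. In AngII+HS Trdv4 passed the filter used for counts and Trgv6 did not, and in Control neither did. Trgv6 (ENSMUSG00000076746) and Trdv4 (ENSMUSG00000076867) are encoded on the plus strand of GRCm39, and the last bases of exon 2 of each are given, in which capitals mark the in-frame codon of the conserved cysteine that opens the junction with the joining segment. The Trgv6 stretch covers chr13:19374994-19375099 and ends 13 bases after that codon, and the Trdv4 stretch covers chr14:54312868-54312972 and ends 12 bases after it.
Trgv6: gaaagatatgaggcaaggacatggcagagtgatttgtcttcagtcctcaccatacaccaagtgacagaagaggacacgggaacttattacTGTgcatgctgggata
Trdv4: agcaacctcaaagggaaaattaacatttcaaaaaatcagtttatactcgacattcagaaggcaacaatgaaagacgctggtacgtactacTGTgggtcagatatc

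The rule drew its line through a continuous range of counts. Members had a median of 3 Trdc UMIs in Control and 2 in AngII+HS. In AngII+HS, 20 members had 1 Trdc UMI, 25 had 2 and 42 had 3 or more. Scart1, which the rule did not use, was found in 12 of those 20, 18 of those 25 and 38 of those 42 cells. Just outside the rule stood 7 AngII+HS cells and 3 Control cells with 1 UMI of the CD3 genes in place of 2, of which 2 and 0 held Scart1. A further 28 AngII+HS cells met the CD3 and Trdc criteria and had no Cd4 or Cd8b1, but were left out for UMIs of a macrophage, neutrophil or B cell gene. Of these 28 cells 21 held Scart1, 10 held Trdv4 and 7 held Il17a, so the members do not include every γδ T cell of that library. The comparison group, called other T cells, was made of the 91 Control and 762 AngII+HS cells with at least 2 CD3 UMIs, no Trdc UMI and the same exclusions except that Cd4 and Cd8b1 were allowed. Of these, 40 in Control and 458 in AngII+HS had neither Cd4 nor Cd8b1. γδ T cells held a median of 4083 UMIs in Control and 2510 in AngII+HS, and other T cells 5754 and 2729.5.

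The label was checked against genes the rule did not use. Trgc1, a constant segment of the γ chain, gave 274 CPM (UMIs of the summed cells scaled to a common total) in Control γδ T cells against 7.48 CPM in other T cells, and 339 CPM against 9.72 CPM in AngII+HS. It was found in 7 of 12 and 51 of 87 members, a log2 ratio over other T cells of 5.19 (3.64 to 7.02) and 5.13 (4.51 to 5.79). Trgc1 and Trgc2 are alike in sequence, so the split of reads between them may be uncertain, which was not tested. The α chain gene Trac was present in 3 of 12 and 10 of 87 members, against 69.2% and 55.6% of other T cells, and stood at 58.6 CPM and 62.3 CPM, a log2 ratio of -1.91 (-4.20 to -0.33) and -2.19 (-2.95 to -1.52). Trac in B cells, which lack it, gave 2 UMIs in Control and 24 UMIs in AngII+HS. Trbc2, a constant segment of the β chain, was less reduced, at 215 CPM against 443 CPM in Control and 298 CPM against 409 CPM in AngII+HS. Trbc1, the other β chain constant segment, lay within 2-fold of other T cells in both libraries, with a higher ratio than Trbc2. The 8 NK cell markers summed to 0 UMIs in Control members and 5 UMIs in AngII+HS members. They include Ncr1, which the rule itself held at 0, so only the other 7 bear on the label. Foxp3, which defines regulatory T cells, had no UMI in any member.

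γδ T cells made up 0.106% of kept Control cells (0.0549 to 0.186, Clopper-Pearson) and 0.354% of kept AngII+HS cells (0.284 to 0.437), a log2 ratio of 1.74 (0.86 to 2.74). Among T cells, defined as γδ and other T cells together, the share was 11.7% (6.17 to 19.5, 12 of 103 cells) in Control and 10.2% (8.29 to 12.5, 87 of 849 cells) in AngII+HS, a log2 ratio of -0.19 (-1.06 to 0.82). The γδ share of all cells was thus higher in the AngII+HS library, and the γδ share of T cells was not distinguishable at these numbers. Of cells with CD3 and Trdc and no Cd4 or Cd8b1, the other exclusions left out 28 in AngII+HS and 0 in Control. The part of these exclusions in the shares was not tested. A share of cells depends on how many cells of every other type were loaded, and whether aortas held more γδ T cells was not measured.

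Trdv4 was the most often seen of the variable segments described here. It gave 14 UMIs in 7 of 12 Control members and none in the 91 other T cells, at least 60.9-fold higher when 3 counts are taken as the floor over the group. In AngII+HS it gave 59 UMIs in 35 of 87 members (40.2%) against 4 UMIs among 762 other T cells, a ratio of CPM of 147. Trgv6 gave 2 UMIs in 2 Control members and 11 UMIs in 9 AngII+HS members, with 0 and 5 UMIs in other T cells. Trgv4 had no UMI in any member, and Trgv1 had 1 UMI in 1 AngII+HS member. Trgv2 was seen at 3 UMIs and 6 UMIs. B cells held no UMI of Trdv4 or Trgv6 in either library. In Control all 8 members with Trdv4 or Trgv6 also held Scart1, and in AngII+HS 39 of 40 did, against 3 of 4 and 29 of 47 of the members without those segments. The libraries were made with a 3′ kit, which captures variable segments only in part, so a member without such a UMI is not thereby shown to lack the segment.

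Genes known for IL-17-producing γδ T cells were higher in γδ than in other T cells in both libraries. Of the 31 measured genes of this list, 28 had at least 20 UMIs over the compared AngII+HS cells, of which 23 were at least 2-fold higher in γδ T cells, 4 lay between and 1, Ccr6, was lower. Their median log2 ratio, with 0.5 UMIs added, was 2.21, against 0.04 over all 10367 genes past the same filter, of which 6.67% were at least 2-fold higher and 13.3% at least 2-fold lower. In Control 16 genes passed the filter, 15 were at least 2-fold higher, none was at least 2-fold lower, and the median was 2.60 against 0.01 over 5525 genes, of which 13.2% were at least 2-fold higher and 26.5% at least 2-fold lower. The Control members carried 51151 UMIs in all, so few genes could be measured there.

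Scart1 (a scavenger receptor family gene; GRCm39 chr7:139798180-139811058, plus strand) had the highest ratio of the genes named by rule once receptor genes were set aside. It was at 1544 CPM in Control γδ T cells, from 79 UMIs in 11 of 12 cells, against 7.48 CPM in other T cells, a log2 ratio of 7.69 (6.41 to 9.35). In AngII+HS it was at 894 CPM, from 258 UMIs in 68 of 87 cells (78.2%), against 9.72 CPM, a log2 ratio of 6.52 (5.96 to 7.14). B cells, taken as the measure of free RNA because they should lack T cell transcripts, held 3.30 CPM and 1.30 CPM. With cells thinned to 1000 UMIs, which left out 1 AngII+HS member and 12 AngII+HS other T cells of lower depth, Scart1 was found in 58.3% of 12 Control and 58.1% of 86 AngII+HS members, and in 0% and 0.933% of other T cells. At equal depth the share of members with Scart1 was thus similar in the libraries.

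The receptors through which IL-17-type cells are driven followed. Il23r, the IL-23 receptor chain, was at 1408 CPM against 102 CPM in Control, a log2 ratio of 3.79 (3.29 to 4.29), and at 616 CPM against 58.7 CPM in AngII+HS, a log2 ratio of 3.39 (3.08 to 3.71). It was found in 11 of 12 and 58 of 87 members, and in no B cell. Among other T cells Il23r came mainly from those without Cd4 and Cd8b1, at 222 CPM in Control and 91.1 CPM in AngII+HS, against 0 and 24.6 CPM in CD4 T cells and 0 and 14.4 CPM in CD8 T cells. Il1r1, the IL-1 receptor, was at 938 CPM against 120 CPM in Control and 499 CPM against 106 CPM in AngII+HS, log2 ratios of 2.97 (2.42 to 3.50) and 2.24 (1.94 to 2.53). B cells held Il1r1 at 69.3 CPM and 52.4 CPM, so part of its level in other T cells may be free RNA, which was not tested. Il7r, the receptor of the survival cytokine IL-7, was at 1114 CPM against 235 CPM and at 852 CPM against 272 CPM, log2 ratios of 2.25 (1.78 to 2.69) and 1.65 (1.44 to 1.86). Il18r1 was nearer to other T cells, with log2 ratios of 1.82 (1.28 to 2.32) and 0.75 (0.47 to 1.02). Igf1r, the receptor of insulin-like growth factor, was at 3265 CPM against 440 CPM in Control and 1666 CPM against 281 CPM in AngII+HS, log2 ratios of 2.89 (2.61 to 3.17) and 2.57 (2.40 to 2.73).

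**Figure D1:**
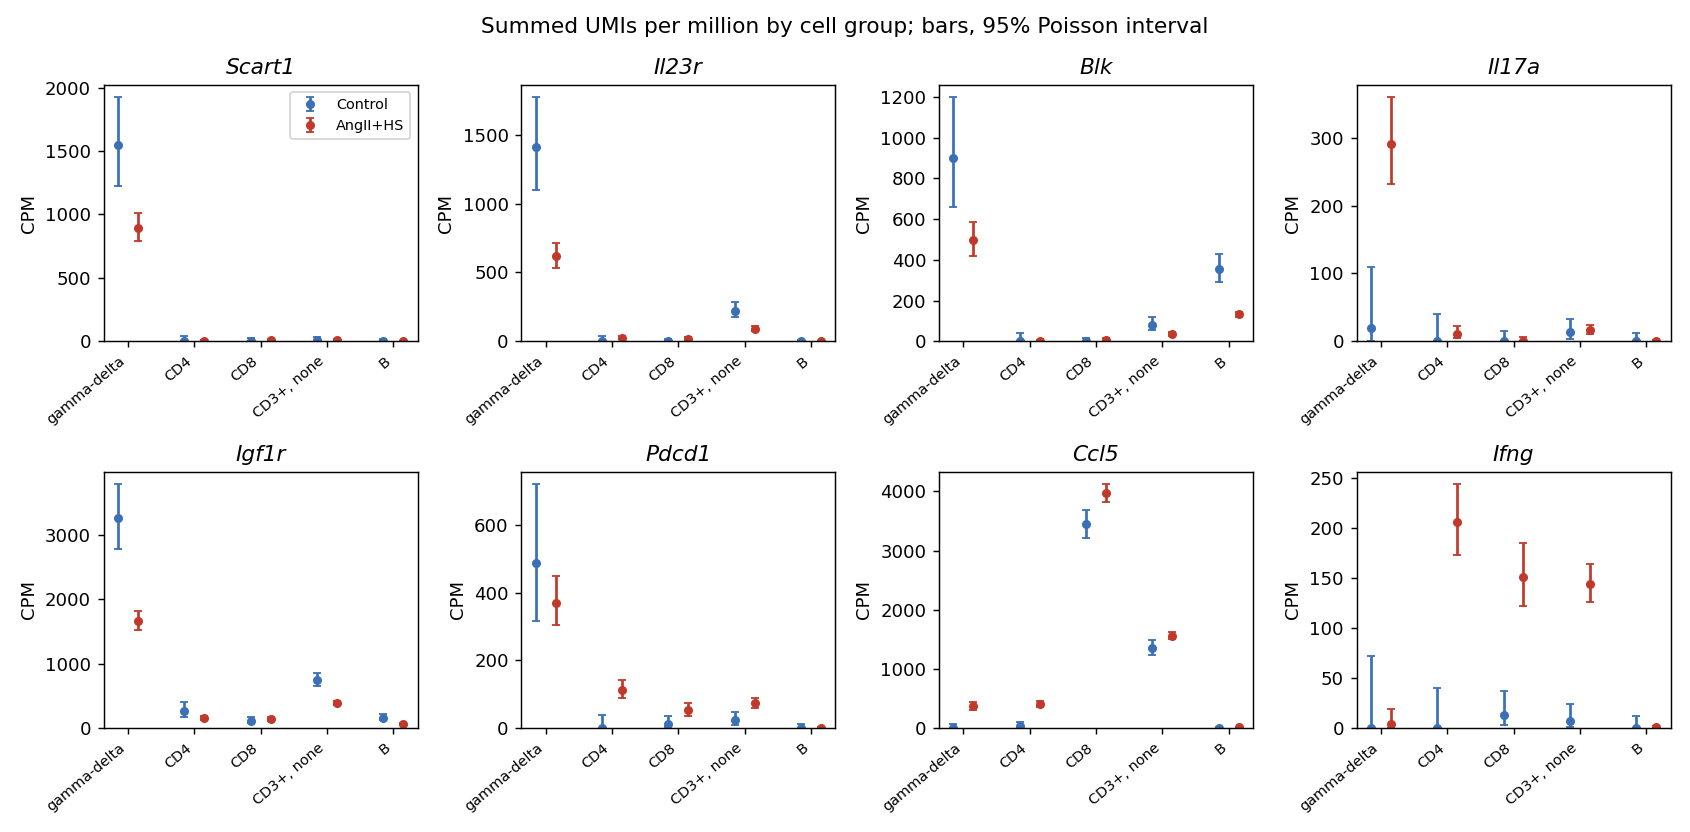
Levels (CPM, linear axes from 0) of 8 genes in γδ T cells, CD4 and CD8 T cells, CD3+ cells without Cd4, Cd8b1 or Trdc ("CD3+, none") and B cells of the Control (blue) and AngII+HS (red) libraries, with bars for the 95% Poisson interval. Scart1, Il23r, Blk, Igf1r and Pdcd1 were highest in γδ T cells of both libraries, Il17a was high in those of AngII+HS, Ccl5 was highest in CD8 T cells, and Ifng was seen mainly in the other T cells of AngII+HS.

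Among cytokines, Il17a (GRCm39 chr1:20801129-20804720, plus strand) was nearly absent from Control, with 1 UMI in 1 of 12 γδ T cells and 4 UMIs in 1 of 91 other T cells. In AngII+HS it gave 84 UMIs in 22 of 87 members (25.3%), or 291 CPM (232 to 360), against 32 UMIs or 11.1 CPM in other T cells and 0.521 CPM in B cells, a log2 ratio over other T cells of 4.71 (4.11 to 5.35). The UMIs were unevenly held: the highest member had 23 of the 84 and the 5 highest together had 51. Depth did not separate the members with Il17a from those without, as 11 of 43 members above the median depth and 11 of 44 at or below it held the transcript. γδ T cells were 0.354% of the kept AngII+HS cells and held 49.7% (41.9 to 57.5) of the 169 Il17a UMIs in them. Other T cells held 32, the cells with CD3 and Trdc left out by the rule 26, B cells 2 and all remaining cells 25. Il17f, its close relative, had 7 UMIs in 4 AngII+HS members and none in Control members. These were 7 of the 54 Il17f UMIs in the kept AngII+HS cells, a share between 5.37% and 24.9%. Other T cells held 16 and cells outside the named groups 24. Il22 and Csf2 had no UMI in any member. Other cytokine genes at least 2-fold higher in AngII+HS γδ T cells were Lta, Tnfsf11 and Ltb, and those at least 2-fold lower were Ifng, Cd40lg, Il4, Tnfsf8 and Il10, out of 19 of the 25 listed that passed the filter. These are 5 in each direction, against 6.67% higher and 13.3% lower over all genes. Ltb, which shapes lymphoid tissue, was at 433 CPM against 192 CPM in AngII+HS, and at 293 CPM against 89.8 CPM in Control.

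Genes of interferon γ-producing and cytotoxic cells were mostly lower than in other T cells as a whole, though less so against CD4 T cells. Of the 27 in this list, 26 passed the filter in AngII+HS, 18 were at least 2-fold lower in γδ than in other T cells, none was at least 2-fold higher, and the median log2 ratio was -1.66, against 13.3% lower, 6.67% higher and a median of 0.04 over all genes. Against CD4 T cells alone that median was -0.41. In Control 13 of 17 were at least 2-fold lower and 2, Klrk1 and Il2rb, at least 2-fold higher, with a median of -2.32, against 26.5% and 13.2% of all genes. Summed over the list, Control γδ T cells held 1408 CPM (1101 to 1773), CD4 T cells 1089 CPM (887 to 1323) and other T cells as a whole 3723 CPM, so Control γδ T cells were not below CD4 T cells. In AngII+HS the sums were 2279 CPM (2108 to 2460), 2962 CPM (2831 to 3097) and 5170 CPM. That Control median turned to -0.17 with genes at 0 UMIs taken at the floor of 3 counts, and the shallow Control group sets no firmer value. Ifng had 1 UMI in 87 AngII+HS members and 457 UMIs in other T cells, or 3.46 CPM against 159 CPM, a log2 ratio of -5.52 (-10.82 to -3.03). In Control it was at 0 UMIs and 5 UMIs. Ccl5, a chemokine of effector lymphocytes, was at 367 CPM against 1809 CPM in AngII+HS, a log2 ratio of -2.30 (-2.59 to -2.02). In Control it had no UMI in 12 members and 1240 UMIs in other T cells, at least 31.6-fold lower. Nkg7, a granule protein, was at 38.1 CPM against 223 CPM in AngII+HS. Eomes had 1 UMI and Prf1, the pore-forming perforin, none in the 87 members. Tbx21, encoding T-bet, was at 62.3 CPM against 96.2 CPM, a log2 ratio of -0.63 (-1.40 to 0.06), a difference not distinguishable from counting error. Il2rb was above other T cells in both libraries, at log2 ratios of 1.41 (0.88 to 1.90) and 0.76 (0.53 to 0.99). Klrk1 was above them in Control, at 1.95 (0.60 to 3.13), and not distinguishable from them in AngII+HS, at 0.22 (-0.36 to 0.76).

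**Figure D2:**
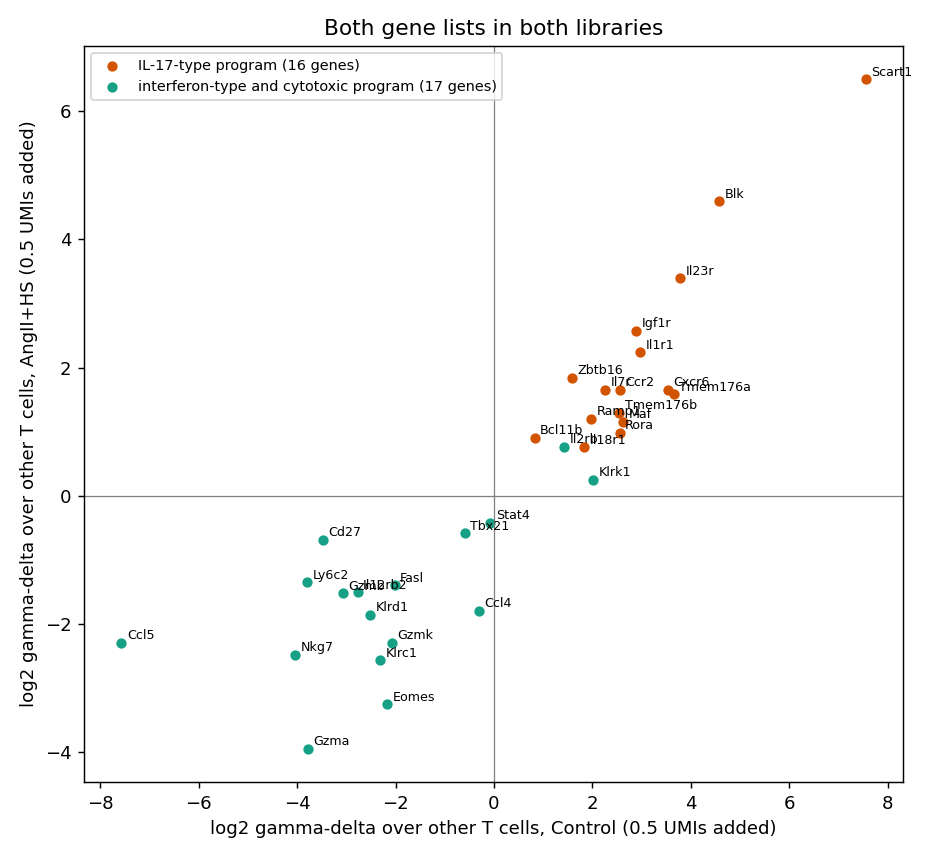
log2 ratio of γδ over other T cells (0.5 UMIs added) in Control (horizontal axis) and AngII+HS (vertical axis) for the 16 genes of the IL-17-type list and the 17 of the interferon-type and cytotoxic list with at least 20 UMIs in both libraries. All 16 IL-17-type genes lie above 0 on both axes, and the other list lies below 0 on both apart from Il2rb and Klrk1.

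The profile could also be read cell by cell. With the cells of at least 1000 UMIs thinned to that number, 86 of the 87 AngII+HS members among them, a γδ T cell held UMIs of a median of 10.5 genes of the IL-17-type list in Control (range 3 to 13) and 8 in AngII+HS (range 0 to 15). Other T cells held a median of 1 and 2, CD4 T cells 2 and 2, CD8 T cells 1 in each library, and B cells 1 and 0. For the interferon-type and cytotoxic list the medians were 1 and 2 genes in γδ T cells, the same as in CD4 T cells, and 1 and 3 in other T cells. The ranges overlapped, since single other T cells reached 11 and 14 genes. Among CD3+ cells without Cd4, Cd8b1 or Trdc, thinned in a draw of their own, the medians were 1 and 2 and the highest cells held 12 and 14. At least 3 genes of the IL-17-type list were found in 12 of 40 and 177 of 452 of those cells, against 12 of 12 and 71 of 86 γδ T cells.

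Among signalling molecules, BLK, a SRC family kinase known in B cells and IL-17-type γδ T cells, was encoded at 899 CPM against 37.4 CPM in Control and 499 CPM against 20.5 CPM in AngII+HS, log2 ratios of 4.59 (3.85 to 5.35) and 4.61 (4.16 to 5.07). B cells themselves held 356 CPM and 131 CPM. Lck, the kinase of αβ T cell receptor signalling, was at 0 UMIs in Control members, at least 3.45-fold lower than in other T cells, and at 20.8 CPM against 189 CPM in AngII+HS, a log2 ratio of -3.19 (-4.64 to -2.06). The surface molecules Cd2, Cd5 and Cd6 had 7, 7 and 2 UMIs in AngII+HS members, with log2 ratios of -2.84, -2.39 and -4.57. In Control they had 0, 1 and 1 UMIs, too few to bound Cd6 away from no difference. In the list of receptor complex and proximal signalling genes, 1 of 16 past the filter was at least 2-fold higher and 4 lower in AngII+HS, and 2 of 14 higher and 6 lower in Control. The counts of higher genes lie near the shares of all genes, 6.67% and 13.2%, so on that side the list was not set apart. Those of lower genes lie above the matching shares, 13.3% in AngII+HS and 26.5% in Control, a difference that was not tested.

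Among checkpoint receptors Pdcd1, encoding PD-1, was the only one at least 2-fold higher in γδ T cells in either library. It was at 489 CPM in Control, from 25 UMIs against 10 UMIs in the deeper group of other T cells, a log2 ratio of 5.03 (3.92 to 6.25), and at 371 CPM against 76.7 CPM in AngII+HS, a log2 ratio of 2.27 (1.93 to 2.61). Of the 11 checkpoint genes past the filter in AngII+HS, 6 were at least 2-fold lower, namely Tnfrsf4, Cd28, Ctla4, Tigit, Tnfrsf18 and Btla, against 13.3% of all genes. In Control 2 of 5 were lower, against 26.5% of all genes. Cd28, the co-stimulatory receptor, was found in 10 of 87 members against 52.1% of other T cells, a log2 ratio of -2.87 (-3.78 to -2.08).

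Of the lineage transcription factors, 4 of 28 past the filter in AngII+HS were at least 2-fold higher in γδ T cells, Sox13, Ikzf3, Zbtb16 and Maf, and 2 were lower, Foxp3 and Eomes. In Control 6 of 23 were higher and 7 lower. Over all genes 6.67% were higher and 13.3% lower in AngII+HS, and 13.2% higher and 26.5% lower in Control. Zbtb16, encoding PLZF, was at 450 CPM against 153 CPM in Control and 523 CPM against 147 CPM in AngII+HS, log2 ratios of 1.56 (0.84 to 2.22) and 1.83 (1.55 to 2.10). Maf was at 977 CPM against 159 CPM and at 717 CPM against 323 CPM. Sox13 was scarce, with 6 UMIs in 3 Control members and 16 UMIs in 14 AngII+HS members, yet at log2 ratios of 3.97 (1.99 to 6.02) and 4.32 (3.01 to 5.75). The nuclear receptor gene Rora was at 2541 CPM and 1645 CPM, with log2 ratios of 2.55 (2.24 to 2.85) and 0.98 (0.84 to 1.13).

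Among homing receptors, Cxcr6, the receptor of CXCL16, was at 743 CPM against 64.4 CPM in Control and 471 CPM against 150 CPM in AngII+HS, log2 ratios of 3.53 (2.86 to 4.19) and 1.65 (1.36 to 1.93). Ccr2, the receptor of monocyte-drawing chemokines, had log2 ratios of 2.54 (1.73 to 3.32) and 1.65 (1.25 to 2.04). Ccr7, which steers cells into lymph nodes, was at 39.1 CPM against 198 CPM and at 34.6 CPM against 131 CPM. Ccr9 had no UMI in any member. Of the 15 chemokine receptor genes past the filter in AngII+HS, 2 were at least 2-fold higher, Ccr2 and Cxcr6, and 7 lower, Ccr8, Ccr9, Ccr1, Ccr7, Ccr6, Ccr4 and S1pr4. In Control 3 of 9 were higher and 4 lower. Over all genes the shares were 6.67% higher and 13.3% lower in AngII+HS and 13.2% and 26.5% in Control. Among activation and residency genes, Hilpda, Rgs1, Crem and Znrf1 were at least 2-fold higher in AngII+HS and 3 integrin genes, Itgae, Itga4 and Itga1, at least 2-fold lower, out of 23, so the lower count lies near the share of all genes. In Control 8 of 21 were higher and 5 lower. Hilpda, a hypoxia-induced lipid droplet protein, was at 364 CPM against 117 CPM in AngII+HS and 196 CPM against 18.0 CPM in Control. Plin2, another lipid droplet protein, was at 152 CPM against 75.3 CPM in AngII+HS, while the fatty acid binding protein Fabp4 had 26 UMIs against 2544 UMIs, a log2 ratio of -3.29 (-3.91 to -2.74).

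The remaining lists of T cell genes are given as counts, to be read against the shares of all genes, 6.67% higher and 13.3% lower in AngII+HS and 13.2% higher and 26.5% lower in Control. Several of these counts lie near those shares. Of the naive and lymph node homing genes, none of 9 was at least 2-fold higher and 1 was lower in AngII+HS, and none of 8 was higher and 3 were lower in Control. Of the cytokine receptor genes 5 of 24 were higher and 5 lower in AngII+HS, and 9 of 20 higher and 7 lower in Control. Of the interferon-stimulated genes, none of 18 was higher and 6 were lower in AngII+HS, and none of 4 was higher and 2 were lower in Control. Of the cell cycle genes, 5 of 18 were higher and 2 lower in AngII+HS, among them Cdk1 with 15 UMIs, all in 2 members, and none of 9 was higher and 5 were lower in Control. Mki67, which lay between in AngII+HS, had 9 UMIs there. Of these, 6 lay in the member with 1186 fibroblast marker UMIs described further on. Of the lipid, glycolysis and hypoxia genes, 2 of 20 were higher and 2 lower in AngII+HS, and 1 of 15 higher and 3 lower in Control.

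Outside the lists, genes were named by their ratio in AngII+HS, with at least 50 UMIs, detection in at least 10% of cells and the same direction in Control. After the receptor genes were set aside, the 15 highest were Scart1, Cdh10, Il17a, Blk, Clnk, Acpp, Zbtb7c, Fstl4, Il23r, Adam12, St3gal3, Actn2, Mmp25, Rab27b and Xkr6. Cdh10, a cadherin, was at 156 CPM against 5.55 CPM in AngII+HS and at 176 CPM against 41.9 CPM in Control. Clnk, an adaptor of immune receptors, was at 180 CPM against 7.64 CPM and at 254 CPM against 19.5 CPM. Fstl4, a secreted follistatin-like protein, was at 166 CPM against 12.5 CPM and at 430 CPM in Control, from 22 UMIs against 14 UMIs. St3gal3, a sialyltransferase, was at 343 CPM against 37.1 CPM and at 587 CPM against 47.9 CPM. Several of these genes have long introns, and reads from introns count in the default setting of recent Cell Ranger releases, so a UMI need not come from spliced mRNA. The 10 lowest were Plcl1, Ifng, Tnfrsf4, Pgap1, Themis, Cd6, Ly75, Grap, Ctla2b and Fabp4. Themis, needed for the selection of αβ T cells in the thymus, was at 13.9 CPM against 307 CPM in AngII+HS and 19.6 CPM against 338 CPM in Control, log2 ratios of -4.47 (-6.35 to -3.11) and -4.11 (-9.42 to -1.62). Plcl1 had no UMI in 87 AngII+HS members and 189 in other T cells, at least 6.32-fold lower.

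The members fell into unlike cells. A split by any UMI of Scart1, Il23r or Blk, chosen after the values were seen and given as a description, placed 11 of 12 Control members and 73 of 87 AngII+HS members in one set and 1 and 14 in the other. All 3 genes were found in 10 of 12 Control and 39 of 87 AngII+HS members, and 28 further AngII+HS members held 2 of them. The sets of AngII+HS had similar depth, at medians of 2513 and 2456 UMIs per cell. Trdv4 was found in 35 of 73 cells of the first set and in none of the 14, Igf1r in 68 of 73 and 1 of 14, Cxcr6 in 53 and 0, Pdcd1 in 48 and 0, and Zbtb16 in 53 and 2. In the other direction, Ly6c2, an antigen of memory T cells, was found in 9 of the 14 and in none of the 73, Ccl5 in 9 and 3, Nkg7 in 7 and 1, Tcf7 in 10 and 15, and Klf2 in 9 and 17. Il2rb did not divide them, at 56 of 73 and 10 of 14. The 14 cells thus carried the Ccl5 and Nkg7 seen in AngII+HS γδ T cells, with 98 of 106 and 9 of 11 UMIs. Trac was found in 1 of the 14, and of the γ chain genes Trgc1 in 2, Trgc4 in 2 and Trgv2 in 1. The γδ identity of the 14 cells rests mainly on Trdc, at 1 UMI in 7 of them. One of the 14 was among the cells with fibroblast transcripts described further on. The single Control cell of the second set held 25 of the 28 Lef1 UMIs of the Control members and 2 UMIs of Ccr7, and none of Ccl5, Nkg7 or Ly6c2.

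**Figure D3:**
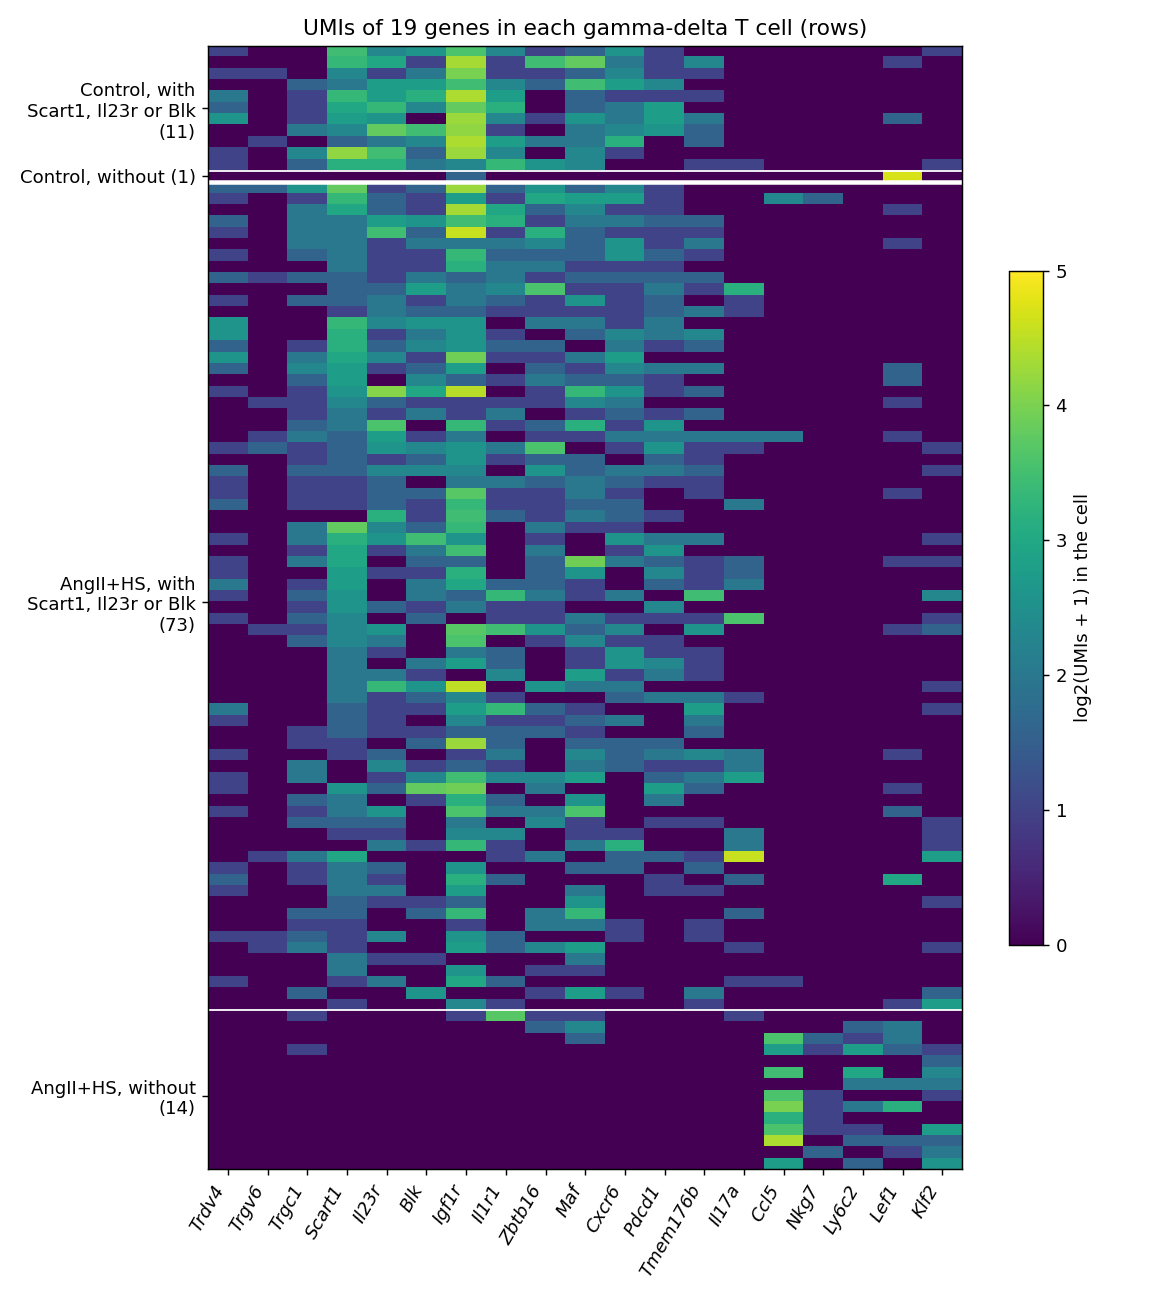
UMIs of 19 genes (columns) in each of the 99 γδ T cells (rows), coloured as log2(UMIs + 1), with Control above AngII+HS and, within each, members with a UMI of Scart1, Il23r or Blk above those without. The 14 AngII+HS cells at the bottom lack Trdv4, Cxcr6 and Pdcd1, and 9 of them hold Ccl5.

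Transcripts of other cell types have to be set beside each comparison. The 5 smooth muscle markers, led by Acta2, were all at least 2-fold lower in γδ than in other T cells in both libraries. They summed to 762 CPM against 8006 CPM in Control and 596 CPM against 1665 CPM in AngII+HS, so the comparison group itself carried such transcripts. Red cell markers summed to 17.3 CPM against 804 CPM in AngII+HS and were all 3 at least 2-fold lower. Endothelial markers, led by Pecam1, summed to 371 CPM against 103 CPM in Control and 305 CPM against 309 CPM in AngII+HS. Markers of type 2 innate lymphoid cells summed to 762 CPM against 340 CPM and 447 CPM against 372 CPM, led by Il2ra in γδ T cells. Those of regulatory T cells, which share Il2ra, summed to 762 CPM against 307 CPM and 634 CPM against 1087 CPM. B and plasma cell markers summed to 0 against 68.9 CPM and 945 CPM against 1127 CPM, and neutrophil markers to 19.6 CPM against 5.99 CPM and 471 CPM against 513 CPM. The neutrophil sums include S100a8 and S100a9, which were capped in choosing both groups, so the choice of cells limited these sums. The part of these transcripts in the ratios of γδ over other T cells was not tested. The 6 fibroblast markers Dcn, Lum, Col1a1, Col1a2, Col3a1 and Pdgfra summed to 137 CPM (55.0 to 282) in Control members, with 2 of them at 0, and to 6964 CPM (6663 to 7276) in AngII+HS members, most of it Col3a1. In other T cells they summed to 924 CPM and 8378 CPM, and in B cells to 2648 CPM and 5574 CPM. The 8 macrophage markers summed to 39.1 CPM and 1216 CPM in members, most of it Apoe in AngII+HS, with 6 and 0 of them at 0. The UMIs sat in few cells. The member with most held 1186 fibroblast marker UMIs, the next 252, and the median AngII+HS member 2. A total of 9 AngII+HS members had more than 20 UMIs of either list and a median of 8207 UMIs, and no Control member had. Without them the fibroblast markers summed to 915 CPM and the macrophage markers to 397 CPM in the remaining 78. By the same limit 12 Control and 99 AngII+HS other T cells were left out, and their fibroblast sums became 201 CPM and 820 CPM, near those of γδ T cells. Scrublet, which scores likely doublets, marked 0 of 12 and 11 of 87 members. The part of such cells in the comparison of conditions was not tested beyond leaving them out. Among them were the deepest members, of 20685 and 17434 UMIs.

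**Figure D4:**
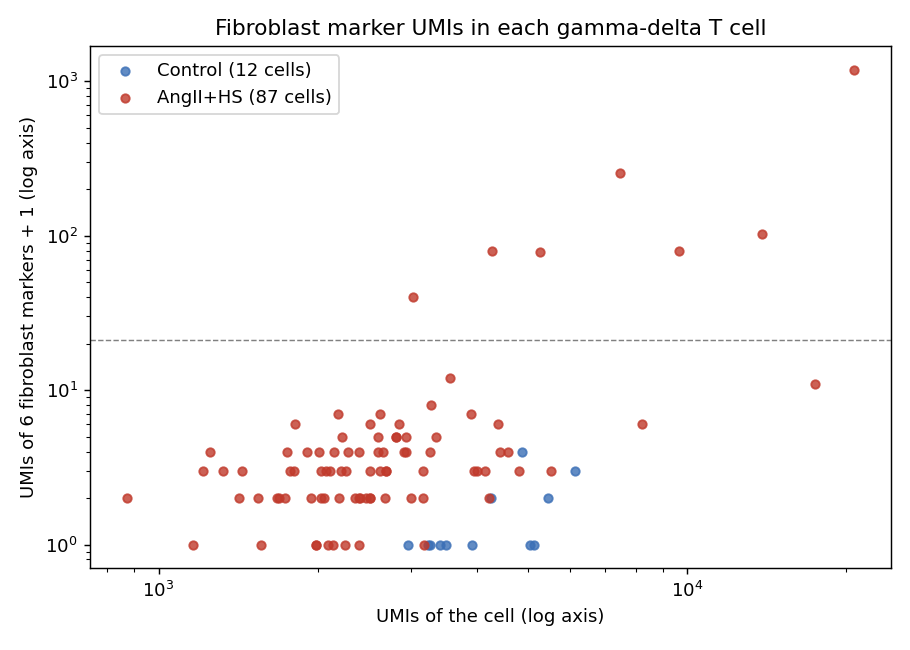
UMIs of the 6 fibroblast markers plus 1 against all UMIs of each γδ T cell, both on log axes, with the dashed line at 20 marker UMIs. The Control members and most AngII+HS members lie below the line, and 7 AngII+HS members lie above it, up to 1186 marker UMIs.

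Within γδ T cells, 19.9% of the 3406 genes with at least 20 UMIs were at least 2-fold higher in AngII+HS than in Control and 8.46% at least 2-fold lower. The 10 highest named by rule were Mmp3, Dcn, Timp1, C3, Zeb2, Col1a1, Hmox1, Cd9, Ccl7 and Lum, mostly genes of fibroblasts and macrophages. Mmp3, a matrix metalloproteinase, had 215 UMIs in AngII+HS members and none in Control. In the 78 members without marked fibroblast or macrophage content it had 8. Dcn went from 483 to 25 UMIs in those 78 cells and its log2 ratio from 6.42 to 2.68 (0.07 to 8.04). In them 340 genes were at least 2-fold higher in AngII+HS in place of 677, and 1 of the 10 named genes still had 50 UMIs. All 10 were still in the same direction, but for Mmp3, Timp1 and C3, at 8, 4 and 8 UMIs against 0 in Control, the interval included no difference.

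Il17a had 79 of its 84 UMIs in the 78 members, at 397 CPM against 19.6 CPM in Control, a log2 ratio of 4.34 (1.82 to 9.67), against 3.90 (1.38 to 9.22) over all members. In other T cells the log2 ratio of AngII+HS over Control was 0.89 (-0.60 to 2.85). The Control value rests on 1 UMI, and 12 Control cells limit what could be found. Thinned to 1000 UMIs, Il17a was found in 0 of 12 Control members, with an exact binomial upper bound of 26.5%, and in 18.6% (11.0 to 28.4) of AngII+HS members. By the same ranking in those 78 members, made after the values were seen, Ccl5, Zeb2, Igkc, Cxcl2, Il17a and Palld were among the highest. Ccl5 came mostly from the set of 14 cells described above. Igkc, the antibody light chain of B and plasma cells, had 77 UMIs against 0, and its log2 ratio in other T cells was 7.74. Eprs, a tRNA synthetase, was at 920 CPM against 156 CPM, a log2 ratio of 2.56 (1.55 to 3.79), and 0.61 (0.32 to 0.92) in other T cells.

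Most other IL-17-type genes were level or lower in AngII+HS γδ T cells. Of the 22 past the filter, 2 were at least 2-fold higher, Il17a and Serpinb1a, 3 at least 2-fold lower, Ramp1, Il23r and Sox13, and 17 lay between, with a median log2 ratio of -0.59 against -0.04 over all genes, of which 19.9% were higher and 8.46% lower. The median was nearer to 0 with TMM factors, at -0.33, and with each cell weighted equally or without the cells of highest Scrublet score, at -0.29 in both. Il23r had a log2 ratio of -1.19 (-1.59 to -0.78), Igf1r -0.97 (-1.23 to -0.71) and Scart1 -0.79 (-1.16 to -0.41). In the 78 members the values were -0.91 (-1.33 to -0.48), -0.60 (-0.86 to -0.34) and -0.38 (-0.75 to 0.01), so that of Scart1 no longer stood apart from 0. Pdcd1 and Il7r, at 0.04 (-0.60 to 0.74) and 0.02 (-0.41 to 0.46) in those cells, did not differ by more than counting error, with an interval of less than 2-fold to either side. The share of members without Scart1, Il23r and Blk also differed, 1 of 12 and 14 of 87, and its part in these values was not tested. Igf1r and Il23r were lower in other T cells of AngII+HS too, at -0.65 (-0.84 to -0.45) and -0.79 (-1.21 to -0.37), and Igf1r in B cells at -1.32.

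Among the lowest genes in AngII+HS γδ T cells, named by rule, were Frmd5, Slc16a10, Taf4b, Lef1, Hs6st2, Pxdc1, Ccnd3, Usp15 and Eml4. Frmd5 was at 645 CPM in Control, all from 3 of 12 cells, and 106 CPM in the 78 AngII+HS members, a log2 ratio of -2.61 (-3.47 to -1.78), against 1.45 (0.26 to 2.94) in other T cells. Slc16a10, an aromatic amino acid transporter, was at 938 CPM and 282 CPM, a log2 ratio of -1.74 (-2.32 to -1.15), against 0.21 (-0.34 to 0.79) in other T cells. Lef1 rests on the single Control cell described above, and its direction turned when that cell was left out by a demand for a γ chain UMI or for 2 Trdc UMIs, to 1.27 and 0.67.

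**Figure D5:**
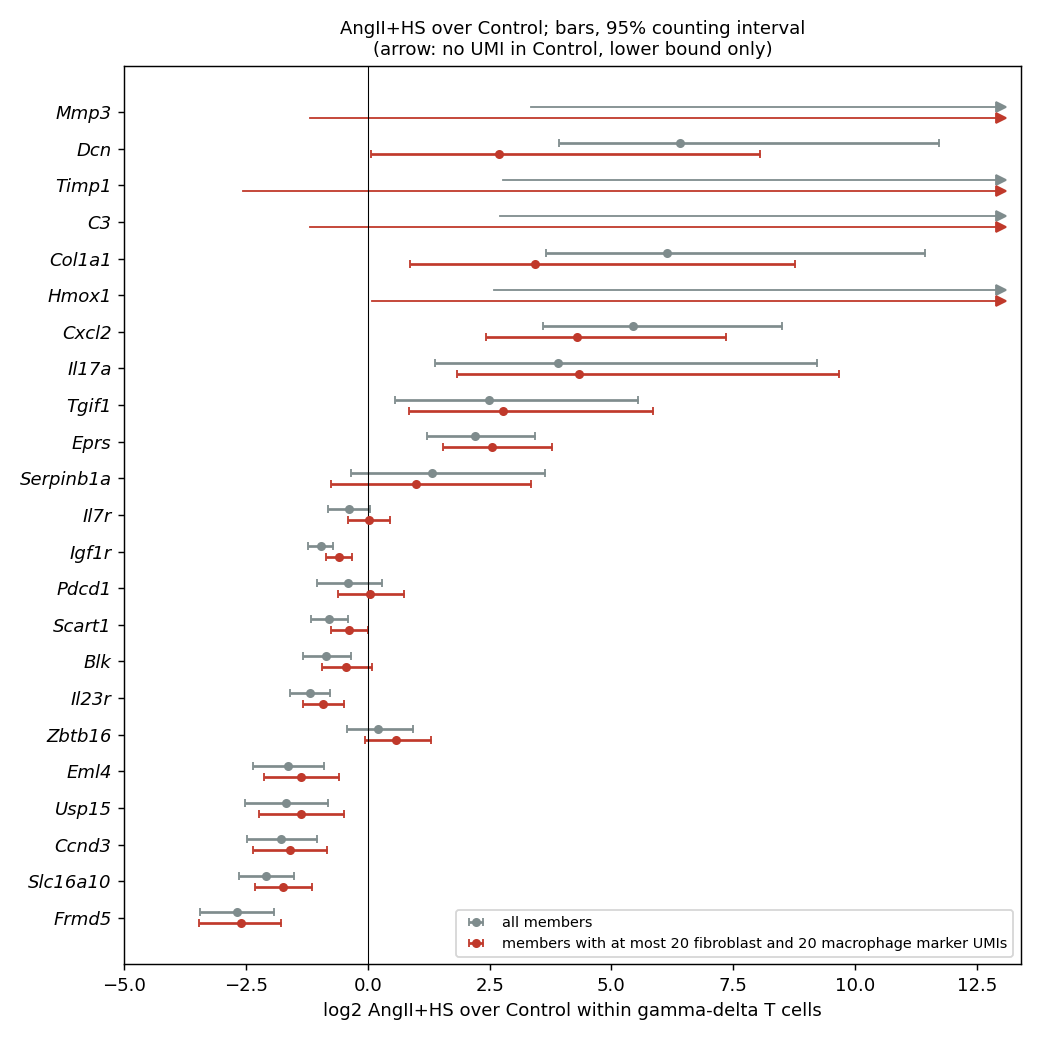
log2 ratio of AngII+HS over Control within γδ T cells for 23 genes, over all members (grey) and over members with at most 20 fibroblast and 20 macrophage marker UMIs (red), with 95% counting intervals and an arrow where Control had no UMI. The ratios of Dcn and Col1a1 and the lower bounds of Mmp3, Timp1, C3 and Hmox1 are smaller in the red set, whereas the ratios of Il17a, Frmd5 and Slc16a10 differ little between the sets.

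The promoters of Il17a and Il23r are shown because these genes were both higher in γδ than in other T cells of the AngII+HS library and code for the cytokine and the receptor of one axis. RefSeq gives 250 bases before the start of each on GRCm38.p6, at chr1:20730655-20730904 on the plus strand for Il17a and chr6:67491856-67492105 on the minus strand for Il23r. Capitals mark AGGTCA, a half-site bound by nuclear receptors, or its reverse complement TGACCT. The windows held 1 and 2 matches, and among 32851 promoter windows of the same length 14.0% held at least 1. Of the 24 genes of the IL-17-type list with a window in the table, 7 held one in at least 1 of their windows. Some of these genes have more than 1 window, so this count by gene is not on the same basis as the share of windows. A match is a string of letters and not a measured binding site.
Il17a: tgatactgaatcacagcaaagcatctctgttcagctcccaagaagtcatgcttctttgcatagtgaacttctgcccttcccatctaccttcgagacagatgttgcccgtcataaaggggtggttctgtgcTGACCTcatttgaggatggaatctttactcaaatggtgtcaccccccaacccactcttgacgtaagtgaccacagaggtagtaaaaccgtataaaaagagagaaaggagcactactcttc
Il23r: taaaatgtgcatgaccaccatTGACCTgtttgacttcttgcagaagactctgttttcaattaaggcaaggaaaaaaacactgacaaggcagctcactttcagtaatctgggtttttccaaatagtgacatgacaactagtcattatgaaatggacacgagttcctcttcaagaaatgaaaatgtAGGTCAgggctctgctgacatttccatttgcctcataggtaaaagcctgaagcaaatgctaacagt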

How the data were processed

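Single cells of the abdominal aorta were sequenced with a 10x Genomics 3′ kit, 1 library per condition. The authors deposited raw UMI counts per gene and barcode from Cell Ranger (8.0.1 in the file header), aligned to GRCm39 in the study's methods and to mm10 in the submitters' processing notes. Gene positions here are from GENCODE on GRCm39. Members and gene lists were chosen with earlier results of these data known. UMIs were summed over cells of a group and scaled to CPM, and medians of lists used log2 ratios with 0.5 UMIs added. Levels have exact Poisson, shares Clopper-Pearson and ratios conditional binomial 95% intervals, which cover counting error only. With 1 library per condition no test was run and edgeR (4.0.16) was used for TMM factors alone. Genes entered counts with at least 20 UMIs over the compared groups. Named genes were the 15 highest and 10 lowest ratios of γδ over other T cells in AngII+HS with the same direction in Control, and the 10 highest and 10 lowest of AngII+HS over Control, each with at least 50 UMIs and found in at least 10% of cells. A count of 0 was bounded by 3 UMIs. Doublets were not removed, and an alternative left out the highest Scrublet scores (scanpy 1.11.5). Scripts were tested on simulated data. Median depth was 7576 UMIs in kept Control cells and 3550 UMIs in kept AngII+HS cells. Alternatives covered the normalization, the filter on low counts, the added constant, the comparison group, stricter rules and cells with markers of other types. A few genes, among them 1 that the naming rule chose, are not reported here.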

Additional observations from a re-analysis of the deposited data

Results flagged for a closer look

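Among the listed, named and receptor genes, 6 had γδ T cells above other T cells in one library and below them in the other. Both intervals left out 0 for each of these 6, and genes that changed side without such intervals were not flagged. In none of the 6 was the difference tested, since each condition has 1 library. A Control count of 0 was taken at the floor of 3 UMIs. The log2 ratio of γδ over other T cells in Control and in AngII+HS was -2.61 and 0.25 for Dcn, and -2.18 and 0.35 for Col3a1, both fibroblast genes. Over all cells the summed fibroblast markers were 137 CPM in γδ and 924 CPM in other T cells of Control, and 6964 CPM and 8378 CPM in AngII+HS. Without cells of more than 20 fibroblast or macrophage marker UMIs, these sums were 137 CPM and 201 CPM in Control. In AngII+HS they were then 915 CPM and 820 CPM. The part of those cells in the ratios of Dcn and Col3a1 was not tested. The log2 ratio was -2.18 and 0.73 for Cd9, and -0.84 and 0.48 for Zeb2, with 0 UMIs of each in Control members. It was -0.71 and 0.95 for Stmn1, also at 0 UMIs in Control members and with 25 of its 54 AngII+HS UMIs in 1 member, and 0.996 and -0.57 for Usp15.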

How the results depend on the processing

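No paired analysis was possible because each condition has 1 library. Of 173 values of the main results under alternatives, 138 stayed within the limits set, 35 moved and 0 turned direction. Only a log2 ratio or median whose main interval left out 0 could be marked as turned. Counts of genes, and values with an interval across 0, could not, so the 0 says nothing about them. Causes were not tested where the construction does not show them. With all genes of at least 1 UMI, genes at least 2-fold higher and lower in γδ T cells numbered 2283 and 8054 in Control and 2350 and 6983 in AngII+HS, and 6775 and 2008 between conditions. With at least 50 UMIs they numbered 309 and 620, 345 and 663, and 206 and 76, and the Control median of the interferon-type list was -3.62. That median was -0.38 with 2 UMIs added. Against CD4 T cells alone the counts were 230 and 253 in Control and 425 and 548 in AngII+HS, with an interferon-type median of -0.41 in AngII+HS. Against CD8 T cells alone they were 357 and 571 in Control, with 561 lower in AngII+HS and an IL-17-type median of 4.09 in Control. Against CD3+ cells without Cd4, Cd8b1 or Trdc they were 454 and 843 in Control, with 851 lower in AngII+HS. TMM factors gave 412 higher in Control, 159 lower in AngII+HS than in Control, and an IL-17-type median between conditions of -0.33. That median was -0.29 with each cell weighted equally and -0.29 without the cells of highest Scrublet score, which left 325 genes higher and 191 lower between conditions. Without cells of more than 20 fibroblast or macrophage marker UMIs, an alternative chosen after seeing the data, 947 genes were lower in Control γδ than other T cells and 340 higher in AngII+HS than Control. Of the single genes whose main interval left out 0, Lef1 alone turned, from -1.81. Its value was 0.67 with 2 Trdc UMIs demanded and 1.27 with a γ chain UMI demanded. A change of sign in single genes with an interval across 0 was not counted. With 12 Control members and 51151 UMIs, the floor of 3 UMIs for a gene at 0 there is 58.6 CPM.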
